A study of Mus musculus with 8 samples.

Results

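The let-7 and miR-98 microRNA (miRNA) family was examined in mouse bone marrow-derived macrophages, left without stimulus or given lipopolysaccharide (LPS), the endotoxin of Gram-negative bacteria. The members were chosen by name: the 5p arms of let-7a, let-7b, let-7c, let-7d, let-7f, let-7g, let-7i and miR-98, with the 3p arms of let-7d and let-7i. These are 10 of the 1907 mature miRNAs listed for each library, and let-7e was kept out as part of another cluster. All samples were wild type, and the labels give a mouse age of 8 to 12 weeks and no strain. Bone marrow cells became macrophages over 6 days in L929 supernatant, which contains the growth factor M-CSF. The unstimulated group has 3 small RNA libraries, and the LPS group has 3 libraries from cells given 100 ng/ml LPS for 3 h. Nothing in the labels ties a library to its own animal or culture, so p-values describe the spread between these libraries, which may be technical. The 2 chromosome conformation samples of the series were not analysed here.

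Members of the let-7 family are among the most conserved miRNAs of animals and are abundant in differentiated cells. They hold back growth and stem cell genes such as Lin28a, Hmga2 and Ras, and the LIN28 proteins in turn block the maturation of let-7 precursors. In inflammation, transcripts of Il6 and Tlr4 have been described as let-7 targets. Each precursor hairpin is cut into a short duplex of a 5p and a 3p arm. As a rule the 5p arm of a let-7 hairpin is loaded into Argonaute, where it guides silencing, and the 3p arm is mostly degraded.

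The mature sequences of the members (mmu stands for mouse), from RefSeq on GRCm38.p6, show how alike the counted molecules are. Each is written 5′ to 3′, with the seed (bases 2 to 8, which pair with target transcripts) in capitals.
mmu-let-7a-5p: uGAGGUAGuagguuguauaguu
mmu-let-7b-5p: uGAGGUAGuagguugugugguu
mmu-let-7c-5p: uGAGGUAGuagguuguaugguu
mmu-let-7d-5p: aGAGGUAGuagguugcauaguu
mmu-let-7f-5p: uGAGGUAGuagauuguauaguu
mmu-let-7g-5p: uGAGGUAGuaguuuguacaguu
mmu-let-7i-5p: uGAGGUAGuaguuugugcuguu
mmu-miR-98-5p: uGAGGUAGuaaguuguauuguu
mmu-let-7d-3p: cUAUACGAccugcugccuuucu
mmu-let-7i-3p: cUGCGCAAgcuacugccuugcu

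The 8 members from 5p arms carry the same seed, so they are predicted to share most targets. The seeds of let-7d-3p and let-7i-3p differ from it and from each other, and no other mature miRNA of the RefSeq table has either of them. All 10 members are 22 bases long, so they do not differ in length. Whether library preparation captured the different sequences equally well was not tested, so levels and shares here compare counted reads. Counted from 1 at the 5′ end of let-7a-5p, let-7c-5p differs from it by A19G, let-7f-5p by G12A and let-7b-5p by A17G and A19G. miR-98-5p differs from let-7a-5p by G11A and A19U, let-7g-5p by G12U and U18C, and let-7d-5p by U1A and U16C. The most distant is let-7i-5p, with G12U, A17G, U18C and A19U, and its nearest relative is let-7g-5p at 2 substitutions. A read with 1 sequencing error can therefore match another family arm in let-7a-5p, let-7b-5p, let-7c-5p and let-7f-5p, whose nearest relative is 1 substitution away.

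The hairpins are spread over several loci of GRCm38.p6. let-7i stands alone on chromosome 10 (chr10:122985640-122985724, minus strand), outside the span of any other annotated gene. let-7a-1 (chr13:48538179-48538272), let-7f-1 (chr13:48537829-48537917) and let-7d (chr13:48536012-48536114) lie side by side on the minus strand of chromosome 13. let-7c-2 (chr15:85706603-85706697) and let-7b (chr15:85707319-85707403) lie on chromosome 15 inside the span of the long noncoding RNA gene Lncppara. let-7f-2 (chrX:151912346-151912428) and miR-98 (chrX:151913214-151913321) lie inside the span of Huwe1, a ubiquitin ligase gene. let-7g (chr9:106178840-106178927) lies inside the span of Wdr82, which encodes a chromatin protein, and let-7a-2 (chr9:41536716-41536811) inside that of Mir100hg. let-7c-1 (chr16:77599657-77599750) is 657 bases from miR-99a. The table gives spans only, so whether a hairpin is exonic or intronic is not stated.

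Library totals ranged from 3280688 to 4312555 counts, and 357 miRNAs passed the filter on low counts, among them all 10 members. Of 6 miRNAs listed as markers of macrophages and other myeloid cells, miR-142a-3p was at 0 counts in every library. The other arm of its hairpin, miR-142a-5p, had 196331 to 238828 counts per library. Why the 3p arm was at 0 was not tested. The list as a whole summed to 488872 to 545953 CPM in unstimulated and 496005 to 564257 CPM in LPS libraries. Most of it came from miR-22-3p and miR-21a-5p, so the sum mainly describes these 2. miR-223-3p of the same list had means of 2279 CPM without stimulus and 2340 CPM after LPS. CPM here are read counts relative to library size, scaled with the TMM factors of edgeR. The 6 neuron, muscle and liver markers were at 0, the 3 erythroid markers together gave at most 5 counts in a library and the 5 stromal markers at most 9. The 3 lymphocyte markers summed to 619.9 to 717.7 CPM in unstimulated and 632.9 to 728.8 CPM in LPS libraries. Most of this came from miR-181c-5p (means of 596.1 and 609.2 CPM), with miR-150-5p at means of 62.3 and 71.8 CPM. The 6 epithelial markers summed to 241.0 to 269.4 and 219.4 to 275.1 CPM. The part of such cells in the let-7 counts was not tested. miR-155-3p, an LPS-induced miRNA, was at 6.41, 1.94 and 3.88 CPM without stimulus and at 456.9, 459.4 and 506.8 CPM after LPS, above every unstimulated library in each case. The other LPS references were miR-155-5p and miR-146a-5p. miR-155-5p was at 1106, 282.5 and 682.2 CPM without stimulus and at 5190, 4231 and 4479 CPM after LPS. miR-146a-5p overlapped between groups, at 17522, 15881 and 17864 CPM without stimulus and 22638, 16421 and 20234 CPM after LPS.

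The first question was how the family pool is made up. let-7i-5p supplied most of the 5p pool, with 58.4% ± 2.87 (SD, n = 3) of its counts in unstimulated and 61.2% ± 3.58 in LPS libraries. let-7g-5p followed with 16.2% ± 1.09 and 15.6% ± 1.30, and let-7d-5p with 12.4% ± 1.84 and 10.7% ± 1.69. let-7f-5p gave 6.05% ± 0.262 and 5.90% ± 0.349, and miR-98-5p 4.31% ± 0.0993 and 4.18% ± 0.198. let-7b-5p made up 1.82% ± 0.112 and 1.62% ± 0.207. The smallest shares were those of let-7c-5p (0.377% ± 0.0293 and 0.362% ± 0.0264) and let-7a-5p (0.349% ± 0.0071 and 0.380% ± 0.0526).

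**Figure D1:**
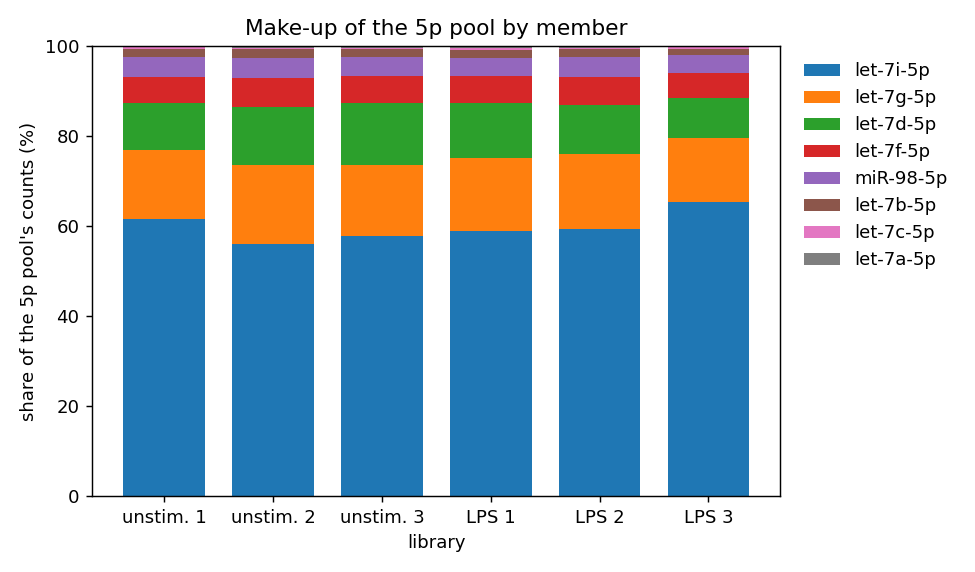
Share of each 5p member in the summed counts of the 8 members (vertical axis, percent) for the 3 unstimulated and 3 LPS libraries (horizontal axis). let-7i-5p takes 56.0% to 65.3% of the pool in every library, and let-7a-5p and let-7c-5p are barely visible at under 1%.

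The let-7i-5p share was 61.6%, 56.0% and 57.7% in the unstimulated libraries and 59.0%, 59.3% and 65.3% in the LPS libraries. The groups overlapped, and the highest share stood in LPS replicate 3. The mean difference of 2.77 percentage points was smaller than the SD between libraries of a group, and it ran from 0.705 without LPS replicate 3 to 4.35 without unstimulated replicate 1. It was 1.56 without unstimulated replicate 2. The let-7d-5p share ran from 10.4% to 13.9% without stimulus and was 12.3%, 11.0% and 8.91% after LPS, again with overlap. No member's share separated the groups, and no test was run on shares.

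All 8 arms together held 3.18%, 2.90% and 3.05% of all miRNA counts in the unstimulated libraries and 2.92%, 2.82% and 2.74% in the LPS libraries. The group means were 3.05% ± 0.14 and 2.83% ± 0.0906. LPS replicate 1 lay above unstimulated replicate 2, so the groups overlapped. On TMM-scaled CPM the difference was -0.108 percentage points instead of -0.215. Counts of a pool do not tell fewer cells of a type from less RNA per cell.

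Levels of the members spanned a wide range and kept nearly the same order in both groups. let-7i-5p, the 12th miRNA by mean level of all 1907, was at 17546 ± 2342 CPM without stimulus and 17660 ± 1171 CPM after LPS. let-7g-5p was at 4836 ± 148.1 and 4506 ± 421.8 CPM, let-7d-5p at 3697 ± 382.1 and 3103 ± 591.3 CPM, and let-7f-5p at 1808 ± 89.5 and 1703 ± 122.2 CPM. miR-98-5p reached 1290 ± 96.4 and 1205 ± 52.1 CPM. let-7d-3p, at 838.7 ± 65.5 and 856.8 ± 58.2 CPM, had higher CPM than the 5p arms of let-7b, let-7c and let-7a. let-7b-5p was at 544.2 ± 43.8 and 468.4 ± 72.9 CPM. At the lower end were let-7c-5p (112.4 ± 5.33 and 104.7 ± 12.2 CPM), let-7a-5p (104.5 ± 6.65 and 109.9 ± 19.6 CPM) and let-7i-3p (38.7 ± 8.40 and 68.1 ± 13.9 CPM).

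The library ranges of neighbours in this order did not overlap, in either group, for any pair but let-7c-5p and let-7a-5p. Those 2 arms overlapped in both groups and changed places, with let-7c-5p above by 1.08 times without stimulus and let-7a-5p above by 1.05 times after LPS. let-7i-5p exceeded let-7g-5p by 3.63 times without stimulus and by 3.92 times after LPS. From the highest to the lowest 5p member the ratio of means was 168 in unstimulated and 169 in LPS libraries.

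**Figure D2:**
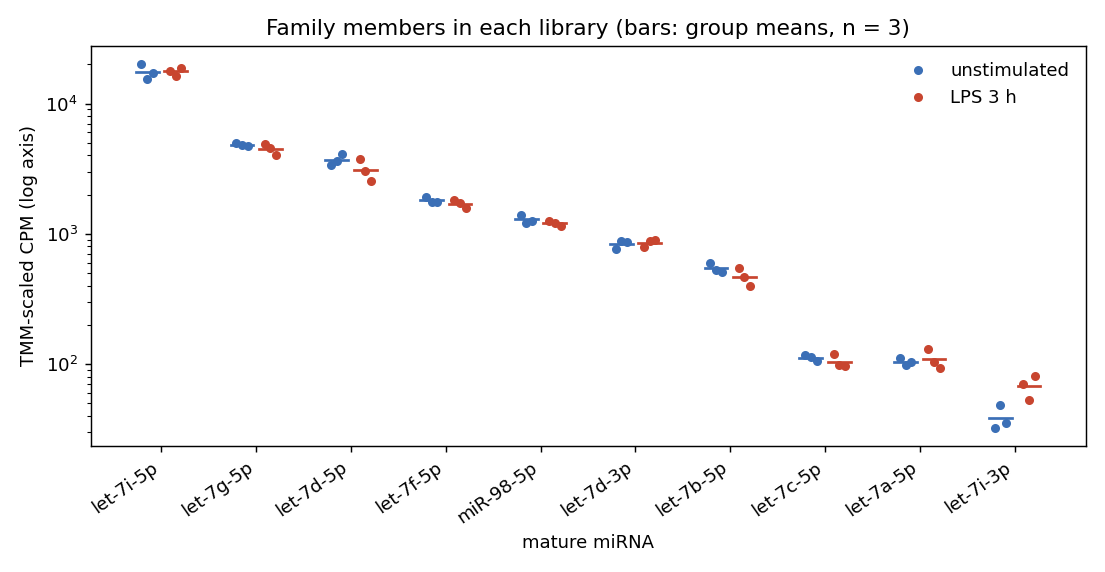
Level of each member in every library (vertical axis, TMM-scaled CPM on a log axis), ordered by the unstimulated mean, with short bars for the means of 3 libraries per group. let-7i-5p has means of 17546 and 17660 CPM, let-7a-5p and let-7c-5p have means of 104.5 to 112.4 CPM, and let-7i-3p is the member whose groups do not overlap.

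The lowest 5p members come from duplicated hairpins. The sequences of let-7a-5p, let-7c-5p and let-7f-5p each occur in 2 RefSeq hairpins, and the other members in 1. These 3 arms held 6.78% ± 0.297 of the 5p pool without stimulus and 6.64% ± 0.403 after LPS. let-7f-5p was nevertheless the fourth most abundant 5p member, with 5751 to 8049 counts per library, against 370 to 469 for let-7a-5p and 375 to 494 for let-7c-5p. The 3p arms of let-7a-1 and let-7c-2, which are identical in sequence, had 0 to 2 counts per library each. let-7a-2-3p, which has a different sequence, had 0 to 1 counts. let-7f-1-3p and let-7f-2-3p differ in sequence and had 119 to 240 and 134 to 247 counts. Over all names with a RefSeq sequence, 24.6% of the 65 found in 2 or more hairpins reached 10 counts in a library. Among the 1558 found in 1 hairpin it was 21.2%. How the authors treated reads that fit several hairpins is not given in the sources used here, and its part in the low counts of let-7a-5p and let-7c-5p was not tested. The shares above are shares of counted reads.

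The next question was whether LPS changed any member within 3 h. No member passed edgeR's quasi-likelihood test at an adjusted p of 0.05, against 18 of 357 miRNAs tested (5.04%) in the same fit, of which 3.64% of those tested were higher and 1.40% lower. Without LPS replicate 3 that fit called 11 miRNAs and again no member. At an unadjusted p below 0.05 there was 1 member, let-7i-3p, against 11.8% of the tested miRNAs. DESeq2 called let-7i-3p and no other member, and limma-voom called none. The median log2 fold change (LPS over unstimulated) of the 10 members was -0.09, and that of all tested miRNAs 0.01. The members' values were below 0 in 6 and above 0 in 4, and those of all tested miRNAs below 0 in 169 and above 0 in 188. With upper-quartile factors the split was 8 to 2 for the members and 219 to 138 for all, and with library totals 8 to 2 and 215 to 142.

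let-7i-5p, the main arm of the pool, was at 20067, 15438 and 17134 CPM without stimulus and at 17914, 16383 and 18683 CPM after LPS. The LPS libraries fell inside the unstimulated range, and the log2 fold change was 0.01 (SE 0.12, 95% interval -0.25 to 0.27). Its sign was negative with upper-quartile factors and with library totals. let-7g-5p was at 4998, 4803 and 4707 CPM against 4876, 4595 and 4047 CPM. Its log2 fold change was -0.10 (SE 0.10), with an interval of -0.33 to 0.13. As folds, the intervals ran from 0.842 to 1.20 for let-7i-5p and from 0.793 to 1.09 for let-7g-5p.

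let-7d-5p had the lowest fold change of the family. It stood at 3372, 3602 and 4118 CPM without stimulus and at 3725, 3035 and 2549 CPM after LPS. The lowest values were those of LPS replicates 2 and 3, while LPS replicate 1 lay inside the unstimulated range. The log2 fold change was -0.25 (SE 0.15, 95% interval -0.58 to 0.07, edgeR adjusted p = 0.645). It was -0.08 without LPS replicate 3, -0.13 without unstimulated replicate 3 and -0.44 (edgeR adjusted p = 0.155) without LPS replicate 1. let-7b-5p showed a similar picture, at 592.6, 532.5 and 507.3 CPM against 542.4, 466.0 and 396.7 CPM. Its log2 fold change was -0.22 (SE 0.14), with -0.06 without LPS replicate 3 and -0.37 (edgeR adjusted p = 0.291) without LPS replicate 1.

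The other 5p members had log2 fold changes between -0.10 and 0.07. let-7f-5p went from 1911, 1750 and 1763 CPM to 1821, 1710 and 1577 CPM (-0.09, SE 0.11). miR-98-5p, its neighbour on the X chromosome, was at 1400, 1217 and 1254 CPM and at 1252, 1215 and 1149 CPM after LPS (-0.10, SE 0.11). In both arms the LPS values reached lower than the unstimulated ones but overlapped them. let-7a-5p (0.07, SE 0.15) ranged from 98.1 to 111.3 CPM without stimulus and from 93.9 to 131.7 CPM after LPS. let-7c-5p (-0.10, SE 0.13) ranged from 106.7 to 117.3 and from 96.9 to 118.7 CPM.

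**Figure D3:**
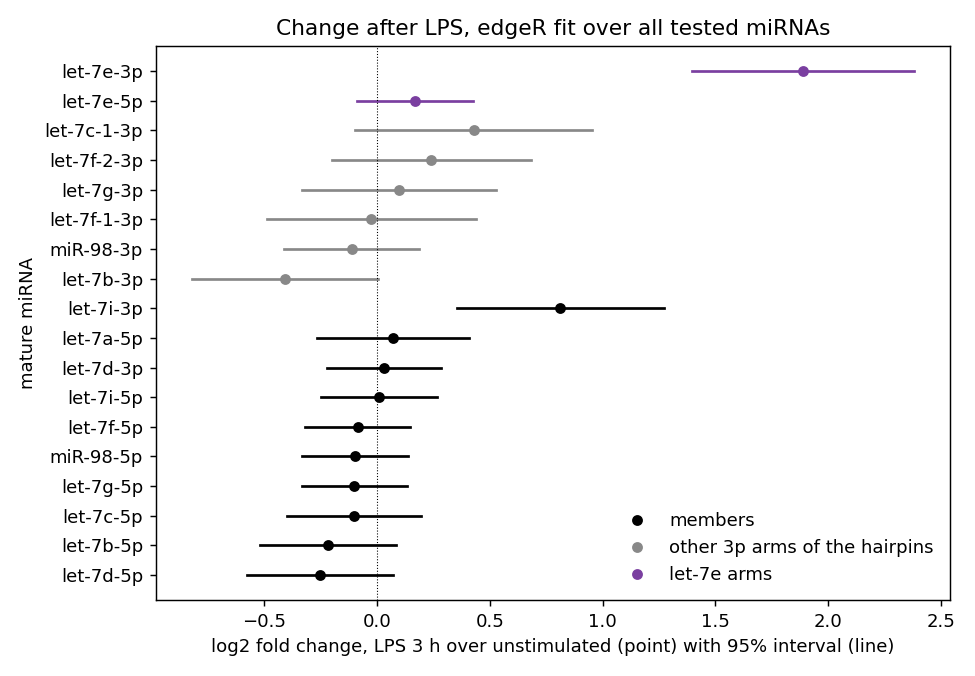
Log2 fold change after LPS (horizontal axis) with its 95% interval for the 10 members (black), the other tested 3p arms of their hairpins (grey) and the let-7e arms (purple). Intervals of all 8 members from 5p arms cross 0, while those of let-7i-3p (0.35 to 1.27) and let-7e-3p (1.40 to 2.38) lie above it.

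Of the 3p members, let-7d-3p did not separate the groups, at 763.3, 880.8 and 872.1 CPM without stimulus and 789.7, 887.9 and 892.9 CPM after LPS. Its log2 fold change was 0.03 (SE 0.11), and its sign was negative with upper-quartile factors and with library totals. let-7i-3p stood at 32.5, 48.3 and 35.4 CPM without stimulus and at 70.0, 53.4 and 81.0 CPM after LPS, from 137, 199 and 146 and from 221, 218 and 319 counts. Every LPS library was above every unstimulated one, and the narrowest gap lay between LPS replicate 2 and unstimulated replicate 2. Such separation was found in 1 of 10 members and in 16.0% of all tested miRNAs, 8.68% with LPS above and 7.28% with LPS below.

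The fitted fold change of let-7i-3p was 1.76 (95% interval 1.28 to 2.42), a log2 fold change of 0.81 (SE 0.21, edgeR adjusted p = 0.0515). The interval lay above 1, but the adjusted p missed the threshold. Without unstimulated replicate 2 the edgeR adjusted p was 0.0213, and without LPS replicate 2 it was 0.016. Over all alternatives it ranged from 0.000525 to 0.21.

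A change in 1 arm of a hairpin and not in the other can be read from their ratio within a library. The hairpins of let-7i and let-7d are shown with both mature arms in capitals, the 5p arm first.
let-7i: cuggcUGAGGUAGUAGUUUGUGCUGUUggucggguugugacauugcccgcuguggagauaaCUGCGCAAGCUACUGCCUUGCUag
let-7d: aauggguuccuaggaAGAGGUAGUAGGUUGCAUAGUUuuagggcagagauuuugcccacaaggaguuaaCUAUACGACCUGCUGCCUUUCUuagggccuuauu

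In let-7i the 3p arm made up 0.162%, 0.312% and 0.206% of the hairpin's counts without stimulus and 0.389%, 0.325% and 0.431% after LPS. All LPS libraries were above all unstimulated ones, and the groups did not overlap in 19.0% of 100 hairpins. The arms differed in their response by 0.79 on the log2 scale (SE 0.23), a ratio change of 1.73 (95% interval 1.23 to 2.44). This passed limma's test over 100 hairpins (adjusted p = 0.0315), in which 12.0% of hairpins were called, 9.00% with a gain of the less abundant arm. The call ended without any 1 library other than unstimulated replicate 2 (limma adjusted p from 0.0747 to 0.287) and in a fit without the variance trend (0.118).

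In let-7d the 3p arm made up far more of the hairpin's counts than in let-7i. The 3p share was 18.5%, 19.7% and 17.5% without stimulus and 17.5%, 22.6% and 25.9% after LPS. LPS replicates 2 and 3 were above all unstimulated libraries and LPS replicate 1 was level with the lowest. The arms differed by 0.30 on the log2 scale (SE 0.19, limma adjusted p = 0.547). The difference was 0.13 without LPS replicate 3 and 0.49 (limma adjusted p = 0.0799) without LPS replicate 1. The 3p share was 5.67% ± 0.231 and 5.13% ± 1.47 in let-7b, 6.85% ± 0.686 and 6.77% ± 0.45 in miR-98 and 0.307% ± 0.0496 and 0.354% ± 0.0522 in let-7g. None of these 3 hairpins passed, with differences between arms of -0.18 (SE 0.23), -0.02 (SE 0.18) and 0.20 (SE 0.23). For the duplicated hairpins, the 3p arms were summed over both copies and described without a test. The let-7c 3p share was 6.62%, 11.1% and 10.8% without stimulus and 12.2%, 13.8% and 13.4% after LPS. Here too every LPS library was above every unstimulated one, beside 19.0% of the 100 tested hairpins whose groups did not overlap. The let-7c 3p counts were few, with 34 to 64 per library for let-7c-1-3p and at most 1 for let-7c-2-3p. The let-7f share overlapped between groups (4.69% ± 0.523 and 5.34% ± 1.00), and so did that of let-7a, whose 3p arms had at most 2 counts each.

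**Figure D4:**
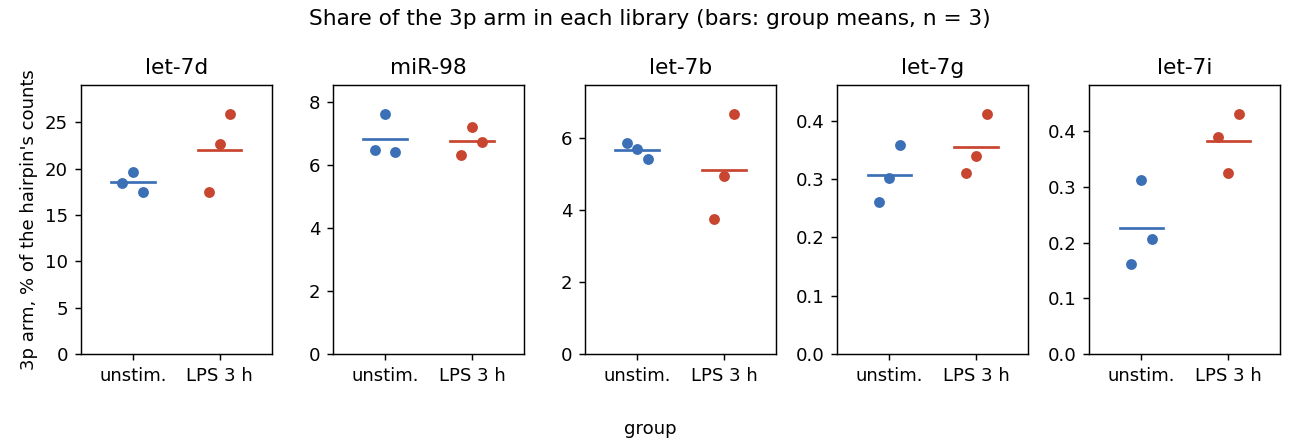
Share of the 3p arm in the 5p and 3p counts of 5 hairpins (vertical axes, percent, each from 0), with points for libraries and bars for the means of 3 libraries per group. In let-7i the LPS libraries (0.325% to 0.431%) lie above the unstimulated ones (0.162% to 0.312%), and in the other 4 hairpins plotted the groups overlap.

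The remaining 3p arms of these hairpins were read as a check on single loci. Of 9 such arms 6 were tested, and edgeR called none in either direction, nor was any at an unadjusted p below 0.05. The median log2 fold change was 0.04, from -0.41 (let-7b-3p) to 0.43 (let-7c-1-3p). let-7b-3p stood at 37.0, 32.3 and 29.1 CPM without stimulus and at 21.2, 24.3 and 28.4 CPM after LPS, so its LPS libraries were all lower, by a small margin in replicate 3 (SE 0.19, edgeR adjusted p = 0.416). let-7c-1-3p was at 8.07, 14.1 and 12.9 CPM against 16.5, 15.7 and 15.0 CPM, all higher after LPS (SE 0.24, edgeR adjusted p = 0.626). Of the 6 tested arms, 1 thus separated with LPS above and 1 with LPS below. Over all tested miRNAs these shares were 8.68% and 7.28%. The 3p arms of let-7f-1 and let-7f-2, hairpins on different chromosomes that give the same 5p arm, had log2 fold changes of -0.03 (SE 0.21) and 0.24 (SE 0.20).

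let-7e, which shares the seed but lies in a cluster with miR-99b and miR-125a on chromosome 17, was read for comparison. Its 3p arm rose 3.71-fold (95% interval 2.64 to 5.21, edgeR adjusted p = 0.000391), with 14.8 ± 3.53 CPM in unstimulated and 54.8 ± 9.73 CPM in LPS libraries, while let-7e-5p was at 797.8 ± 51.0 and 897.4 ± 87.0 CPM (0.17, SE 0.12). With let-7e-5p counted in, it made up 2.60% ± 0.0507 of the pool without stimulus and 3.01% ± 0.216 after LPS. Of 11 arms that neighbour let-7 hairpins in the clusters of miR-99a, miR-100, miR-99b and the miR-125 paralogs, 10 were tested. edgeR called 2 higher, miR-99b-3p and miR-125a-3p of the let-7e cluster, and none lower. miR-125a-3p had means of 24.6 CPM without stimulus and 116.7 CPM after LPS, and miR-99b-3p of 106.1 and 158.8 CPM. Next to let-7c-1, the arms of miR-99a had log2 fold changes of -0.14 (5p, SE 0.11) and 0.11 (3p, SE 0.13). Near let-7a-2, miR-100-5p was at 10.1 ± 3.12 and 10.3 ± 0.891 CPM. The neighbour arm miR-125b-1-3p was not called, at 11, 10 and 7 counts without stimulus and 9, 20 and 21 after LPS. Its CPM were higher in every LPS library than in any unstimulated one (log2 fold change 0.97, SE 0.35, edgeR adjusted p = 0.224). Such separation with LPS above was found in 3 of the 10 tested neighbour arms and in 8.68% of all tested miRNAs.

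Other names with a let-7-like sequence were also read. let-7k and miR-1961 carry the same seed and had at most 1 and 0 counts in a library. The sequence listed as let-7j differs from let-7i-5p by G8U, inside the seed, and by 2 extra bases at the 3′ end.
let-7j: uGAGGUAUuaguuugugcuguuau
It had 554 to 905 counts per library, more than let-7a-5p (370 to 469) or let-7c-5p (375 to 494). The let-7j counts were 0.947% to 1.07% of the let-7i-5p counts in each of the 6 libraries. Whether these counts stem from let-7i reads was not tested.

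Across the 6 libraries the 5p members other than let-7i-5p were all positively correlated with one another. Pearson's r of log2 CPM ran from 0.46 to 0.98 over the 21 pairs of these 7 arms. Between let-7i-5p and each of them it ran from -0.27 to 0.50, so the ranges overlapped. let-7d-3p correlated at -0.32 with let-7d-5p and let-7i-3p at -0.07 with let-7i-5p. These values are descriptions over 6 libraries that share scaling factors and groups. LPS replicate 3 was the lowest of the 6 libraries for 7 of the 8 members from 5p arms, let-7i-5p being the exception, and for 19.6% of all tested miRNAs. Without this library the log2 fold changes of those 7 arms ran from -0.08 to 0.22. Of 126 tested miRNAs outside the family with a mean of at least 100 CPM, those whose log2 CPM most resembled the summed 5p pool were miR-1839-5p (r = 0.99), miR-141-3p (0.92) and miR-30d-5p (0.90). For let-7i-3p they were miR-34a-5p (0.95), miR-22-5p (0.95) and miR-500-3p (0.90). Picking the highest of 126 values over 6 libraries favours a high r, and let-7i-5p supplied most of the summed pool.

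Counting error was a minor part of the spread for most members. Between unstimulated libraries the coefficient of variation of let-7i-5p was 13.3%, where counting alone gives 0.370%, and for let-7g-5p it was 3.06% against 0.706%. For let-7a-5p the values were 6.37% and 4.80% without stimulus and 17.8% and 4.98% after LPS. For let-7c-5p they were 4.74% and 4.63% without stimulus and 11.7% and 5.09% after LPS, so these scarce arms were near the limit set by depth in the unstimulated group and well above it in the LPS group. let-7i-3p varied by 21.7% without stimulus and 20.3% after LPS, where counting gives 7.89% and 6.29%.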

How the data were processed

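The files deposited by the authors hold raw counts per mature miRNA for 6 libraries. Per the labels' protocols these were prepared with the TruSeq Small RNA kit. Tools named in the submitters' processing notes are SAMtools 0.1.19 and Novoalign, with build GRCm38.p1 (mm10). Not given in the sources used here: the counting tool, the miRNA annotation release and the treatment of reads that fit several hairpins.

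In R 4.3.3, miRNAs passing edgeR's filterByExpr (minimum count 10) were kept, which held 99.97% of counts. TMM factors ran from 0.96 to 1.05. Groups were compared with edgeR 4.0.16 (quasi-likelihood F test, Benjamini-Hochberg over 357 miRNAs, called at 0.05). Arm balance was tested with limma 3.58.1 on log2 CPM (prior count 2) of the less abundant minus the more abundant arm, over 100 hairpins. Alternatives were other scaling factors and filters, DESeq2 1.42.0, limma-voom, a replicate block and leaving out each library. Sequences and positions are from RefSeq (GRCm38.p6); 1623 of 1907 names matched, among them all 10 members. The scripts were tested on simulated data.

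All members are named. Of the other arms, those with the highest and lowest fold change and the let-7f pair are named, the latter chosen after their values were seen, as were the neighbours given with values. The members and lists were chosen with earlier results of these data known. Library totals of 3280688 to 4312555 counts set the counting error. No libraries of a group agreed within sampling noise (chi-square per degree of freedom at least 63.0).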

Additional observations from a re-analysis of the deposited data

How the results depend on the processing

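No member was called in the fit as reported, and 1 (let-7i-3p) was called with DESeq2's median-ratio factors in edgeR (adjusted p = 0.0474), with no filter except at least 1 count (0.000525) and with the DESeq2 Wald test (0.00517). Leaving out each library gave 0 to 1 called members, the call coming without unstimulated replicate 2 or LPS replicate 2. Over all tested miRNAs the count of 18 ran from 11 to 18 when 1 library was left out and was 26 with no filter. The arm test called 12 hairpins, 7 without the variance trend and 8 to 14 with 1 library left out. The pool's difference in share of all counts was -0.22 percentage points (SD between libraries 0.118), and -0.29 to -0.15 with 1 library left out. It was -0.37 (SD 0.320) when the 2 most abundant miRNAs were left out of the total. Shares are larger on that smaller total, so -0.37 and -0.22 are not on the same scale. The cause of the other shifts was not tested.

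Signs turned only for values that were not called. Among the members and their hairpins only the let-7i arm balance had been called, so this says little about stability. With upper-quartile factors and with library totals, let-7d-3p was at -0.027 and -0.026, and let-7i-5p at -0.055 and -0.043. With 1 library left out, log2 fold changes ran from -0.11 to 0.22 for let-7a-5p, from -0.076 to 0.092 for let-7d-3p, from -0.17 to 0.015 for let-7f-5p, from -0.195 to 0.019 for let-7g-5p and from -0.066 to 0.072 for let-7i-5p. The difference between arms ran from -0.41 to 0.028 for let-7b and from -0.067 to 0.071 for miR-98.

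Same-numbered libraries of the 2 groups had deviations that correlated at 0.02, 0.14 and -0.04. Unstimulated replicate 1 correlated best with LPS replicate 3, also at 0.14. With deviations taken from means of 3 libraries, such low values cannot decide whether same-numbered libraries are paired. With the replicate block edgeR called 17 miRNAs and no member, and limma 11 hairpins. For let-7i-3p the adjusted p was 0.154 in edgeR with the block. Counting error was highest for the scarce 3p arms, let-7a-5p and let-7c-5p.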
